A study of Mus musculus with 6 samples.

Results

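The type I and type II interferon receptors, their kinases, 1 of their transcription factors and an inhibitor were followed in mouse bone marrow-derived macrophages given polystyrene micro- and nanoplastics (MNP). The genes were taken by symbol, Ifnar1, Ifnar2, Ifngr1, Ifngr2, Jak1, Jak2, Tyk2, Stat2 and Socs1, and all 9 were found among the 40213 genes counted. RNA was sequenced from 3 MNP libraries, of macrophages that received 50 µg of polystyrene MNP for 24 h, and from 3 control libraries, of macrophages that received no particles. All cells came from bone marrow of C57BL/6 mice and became macrophages in medium with 10% serum and the growth factor M-CSF at 25 ng/ml. The sources used here give neither the particle size nor the volume of the dose. The series title asks about macrophage function and glutathione metabolism, and the interferon pathway bears on the first.

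Type I interferons bind a receptor of the chains IFNAR1 and IFNAR2, which carry the kinases TYK2 and JAK1. The kinases phosphorylate STAT proteins, and STAT2 and IRF9 are parts of a complex that binds the interferon-stimulated response element (ISRE) of antiviral genes. Type II interferon, interferon gamma, binds IFNGR1 and IFNGR2, which carry JAK1 and JAK2, and its signal reaches genes through the gamma-activated sequence (GAS). SOCS1 is induced by the pathway and inhibits its kinases. Macrophages keep a low tonic interferon signal without infection, which holds many antiviral genes at a basal level.

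The promoters of the 3 genes that fell after MNP treatment, Stat2, Ifngr1 and Jak2, and of Socs1 are shown to set the 2 motifs beside the values. Each is a RefSeq window of build GRCm38.p6, from 250 bases before the start of the gene to 50 bases after it, read on the strand of the gene, with ISRE matches in capitals. All 9 genes had a window. These lie at chr10:128270248-128270547 (Stat2, plus strand), chr10:19591699-19591998 (Ifngr1, plus strand), chr19:29251553-29251852 (Jak2, plus strand) and chr16:10785487-10785786 (Socs1, minus strand).
Stat2: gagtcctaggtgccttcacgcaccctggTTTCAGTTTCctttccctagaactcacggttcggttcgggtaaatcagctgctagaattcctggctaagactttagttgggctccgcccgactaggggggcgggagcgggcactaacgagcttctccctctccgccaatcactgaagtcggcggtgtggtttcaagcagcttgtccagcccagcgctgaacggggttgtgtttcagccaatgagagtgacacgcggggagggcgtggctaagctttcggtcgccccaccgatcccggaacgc
Ifngr1: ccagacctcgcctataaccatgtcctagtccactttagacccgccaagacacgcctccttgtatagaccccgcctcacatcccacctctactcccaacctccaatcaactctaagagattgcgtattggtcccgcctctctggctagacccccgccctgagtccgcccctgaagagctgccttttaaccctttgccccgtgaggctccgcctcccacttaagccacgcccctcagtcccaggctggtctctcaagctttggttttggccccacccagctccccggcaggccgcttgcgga
Jak2: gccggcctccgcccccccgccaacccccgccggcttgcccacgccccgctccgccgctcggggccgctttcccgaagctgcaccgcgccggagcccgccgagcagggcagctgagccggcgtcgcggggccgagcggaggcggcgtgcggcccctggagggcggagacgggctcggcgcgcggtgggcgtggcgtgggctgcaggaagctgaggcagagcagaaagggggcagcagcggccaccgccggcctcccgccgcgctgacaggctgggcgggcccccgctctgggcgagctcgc
Socs1: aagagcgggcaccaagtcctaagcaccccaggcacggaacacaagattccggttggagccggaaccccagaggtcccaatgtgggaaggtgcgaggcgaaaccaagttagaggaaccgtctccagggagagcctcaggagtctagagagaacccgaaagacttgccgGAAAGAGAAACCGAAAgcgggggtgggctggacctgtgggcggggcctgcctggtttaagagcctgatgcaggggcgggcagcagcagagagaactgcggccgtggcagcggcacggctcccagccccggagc
The ISRE was searched on both strands as the half-site GAAA, any 2 bases and GAAA again, and GAS as TTC, any 3 bases and GAA, which reads the same on both strands. Stat2 held 1 ISRE, TTTCAGTTTC, from 222 to 213 bases before its start. Socs1 held 2 that overlap each other, GAAAGAGAAA and GAAACCGAAA, between 83 and 68 bases before its start. Ifngr1, Jak2, Tyk2, Jak1 and Ifngr2 held neither motif in these windows. Ifnar1 and Ifnar2 each held 1 GAS, TTCACGGAA across the start of Ifnar1 and TTCCTGGAA 214 bases before that of Ifnar2. Over all 32851 promoter windows, 3.44% held an ISRE and 8.30% a GAS. A match is a stretch of letters and not a measured binding site.

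Library totals were 21283713 to 22700499 counts for MNP and 20262859 to 23042146 for control, so a single count came to 0.0424 to 0.0483 CPM, the scaled count level used throughout, which allows for depth and composition of each library. Mitochondrial ribosomal RNA made up 0.115% of MNP library 1 and 0.0217% to 0.0332% of the remaining 5 libraries. MNP libraries had a count for 18240 to 18672 genes, against 20222 to 24062 in control libraries, so the groups did not overlap, and control library 1 was the highest. The macrophage markers Lyz2, Csf1r and Adgre1 were abundant in all libraries, at 13152 ± 446, 1337 ± 39.2 and 1072 ± 56.0 CPM in MNP and 14779 ± 339, 1400 ± 74.2 and 1349 ± 101 CPM in control (SD, n = 3 each). Of 10 macrophage markers, 5 fell and 0 rose, where 8.35% of all tested genes fell and 9.11% rose.

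The upper part of the pathway changed little and its transcription factor Stat2 changed more. Of the 8 genes with enough counts to test, 3 fell and 0 rose (37.5%, against 8.35% of all 12893 tested genes lower and 9.11% higher), by edgeR's quasi-likelihood test with Benjamini-Hochberg adjustment over all tested genes at an adjusted p under 0.05. Stat2 fell by 38.3%, Jak2 fell by 17.0% and Ifngr1 fell by 14.8%. The other 5 changes lay between a log2 fold change of -0.25 and -0.068, and none passed. All 8 were below 0, against 51.8% of all tested genes. In 6 of the 8 the MNP and control libraries did not overlap, against 34.6% of tested genes. The genes were chosen with earlier results of these libraries known, so these shares are a description and not independent evidence. With library totals in place of the composition factors, 6 of the 8 fell, since Ifnar1, Jak1 and Tyk2 then passed, and the share of lower genes among all called was 71.9% in place of 47.8%. The labels do not say whether libraries came from separate cultures or animals, so p-values reflect the spread between these libraries alone, which may be technical. In bulk samples, fewer cells of a type and less RNA per cell cannot be told apart.

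**Figure D1:**
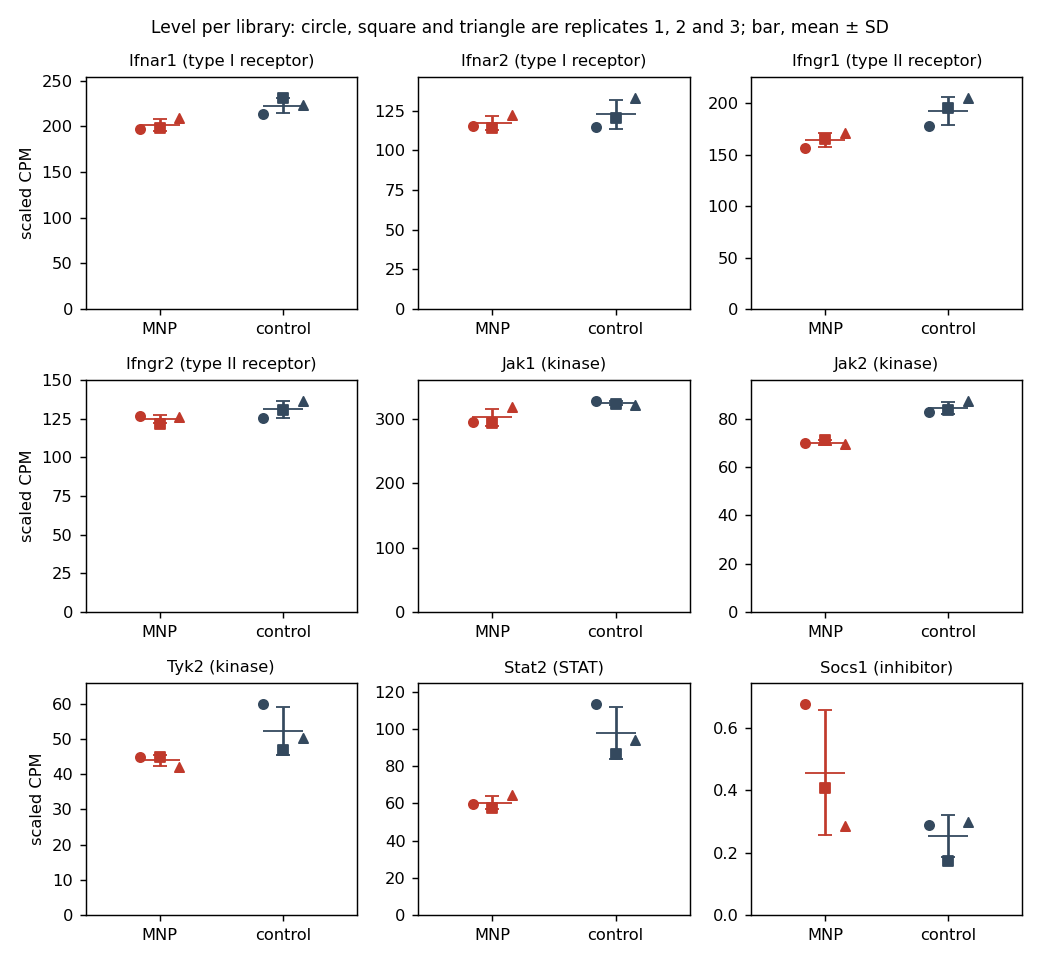
Level of each of the 9 genes in each library, in scaled CPM, with MNP left and control right; points are libraries and bars the mean and SD of 3. Stat2 has MNP libraries at 57.4 to 64.3 CPM and control libraries at 86.4 to 113 CPM, while the libraries of Ifnar2 and Ifngr2 overlap between groups and Socs1 stays below 0.7 CPM.

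Of the type I receptor chains, neither passed. Ifnar1, the chain that carries TYK2, was at 198, 198 and 209 CPM in MNP libraries, against 214, 231 and 223 CPM in control libraries. The groups did not overlap, but the gap was small, and the log2 fold change of -0.14 ± 0.06 (SE) did not pass (edgeR adjusted p = 0.0992). Ifnar2, the chain that binds interferon with high affinity and carries JAK1, was at 115, 114 and 122 CPM in MNP libraries, against 115, 121 and 133 CPM in control libraries. These values overlapped, and the log2 fold change of -0.068 had a 95% interval of -0.21 to 0.071. It was -0.16 with library totals alone (edgeR adjusted p = 0.0892) and -0.00029 without control replicate 3. Ifnar2 also makes a soluble form, which counts per gene cannot separate from the membrane form. Its exons overlap those of Gm21970 on the same strand over 9.46% of their length in GENCODE M21.

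Of the type II receptor chains, the ligand-binding chain fell and the signalling chain did not pass. Ifngr1, which binds interferon gamma and carries JAK1, was at 157, 165 and 171 CPM in MNP libraries, against 178, 196 and 205 CPM in control libraries. Every MNP library was below every control library. Its log2 fold change was -0.23 ± 0.06 (edgeR adjusted p = 0.0242), but it did not pass without MNP replicate 1, 2 or 3 or control replicate 2 or 3 (adjusted p = 0.0519 to 0.115). Ifngr2, which carries JAK2, was at 127, 122 and 126 CPM in MNP libraries, against 126, 131 and 136 CPM in control libraries. These overlapped, and the 95% interval of its log2 fold change ran from -0.19 to 0.049. Ifnar1, Ifnar2 and Ifngr2 lie together on chromosome 16 with Il10rb, the shared chain of the interleukin 10 and type III interferon receptors, while Ifngr1 lies on chromosome 10. Il10rb was at 228 ± 4.63 CPM in MNP and 236 ± 9.03 CPM in control and did not pass either (log2 -0.052 ± 0.054, edgeR adjusted p = 0.568).

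Of the 3 kinases, Jak2 fell. It serves the type II receptor and also the receptors of granulocyte-macrophage colony-stimulating factor and interleukin 3. Jak2 was at 69.9, 71.2 and 69.5 CPM in MNP libraries, against 82.7, 83.8 and 87.4 CPM in control libraries. Both groups were tight and far from overlapping (log2 -0.27 ± 0.06, edgeR adjusted p = 0.00643), and Jak2 passed in all 14 alternatives, each omission of a library included. Jak1, shared by both receptors, was the most abundant kinase per count, at 295, 294 and 318 CPM in MNP libraries, against 328, 324 and 322 CPM in control libraries. The groups came close without overlapping, and its log2 fold change of -0.10 ± 0.05 did not pass (edgeR adjusted p = 0.233). Tyk2, the kinase of the type I receptor, was at 44.9, 44.8 and 42.1 CPM in MNP libraries, against 60.0, 46.8 and 50.3 CPM in control libraries. Control library 1 stood above the other 2, and the log2 fold change of -0.25 ± 0.09 did not pass (edgeR adjusted p = 0.0757) and was -0.14 without control replicate 1, while Tyk2 passed without control replicate 2 (adjusted p = 0.0468). Exons of Tyk2 overlap the antisense gene 1700084C06Rik over 8.07% of their length, and without a stated strand setting their counts cannot be separated.

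Stat2, the STAT that type I interferon signalling needs for its ISRE-binding complex, had the largest change of the 8 tested genes. It was at 59.6, 57.4 and 64.3 CPM in MNP libraries, against 113, 86.4 and 94.0 CPM in control libraries. All MNP libraries lay well below all control libraries, with the highest value in control library 1. The decrease was 1.62-fold (log2 -0.70 ± 0.09, 95% interval -0.89 to -0.50, edgeR adjusted p = 0.000127), larger in size than that of 89.6% of tested genes. Stat2 passed in all 14 alternatives, with log2 fold changes from -0.79 to -0.57, the smallest without control replicate 1. Its counts were 1234 to 1345 in MNP libraries and 1987 to 2368 in control libraries, far above the counting limit.

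**Figure D2:**
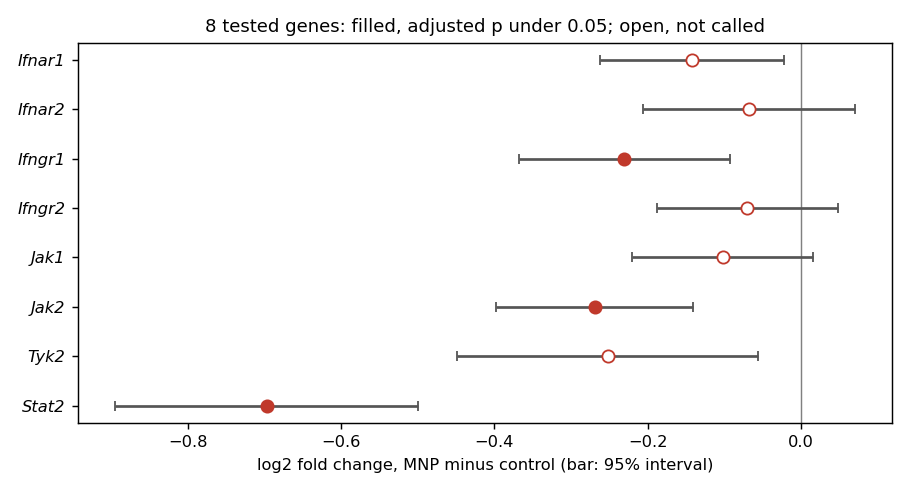
Log2 fold change of the 8 tested genes, MNP minus control, with 95% intervals from the fit; filled points passed an adjusted p of 0.05. Stat2 lies at -0.70, apart from the other 7, which lie between -0.27 and -0.068.

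Socs1, the feedback inhibitor, was near the counting limit and was not tested. It had 14, 9 and 6 counts in MNP libraries, against 6, 4 and 7 counts in control libraries. These overlap, and the summed 29 counts in MNP and 17 in control gave a ratio of 1.80 with an exact 95% interval of 0.958 to 3.50 that covers counting error only. No difference in Socs1 was thus detected at this depth, and with no filter on low counts its edgeR adjusted p was 0.611. Its relative Socs3, which restrains interleukin 6 signalling more than interferon signalling, was at 1.70 ± 0.429 CPM in MNP and 3.10 ± 0.842 CPM in control and did not pass (edgeR adjusted p = 0.0692). The groups did not overlap, and Socs3 passed with library totals alone (edgeR adjusted p = 0.0411) and with replicate number as a block (0.0491).

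Levels per kilobase of exon (CPM divided by the summed exon length in GENCODE M21) placed the genes in an order that was nearly the same in both groups. Ifngr1 was highest, at 57.7 ± 2.54 CPM per kilobase in MNP and 67.7 ± 4.85 in control, and Jak1 followed at 41.8 ± 1.88 in MNP and 44.9 ± 0.392 in control. Next came Ifnar2 (35.2 ± 1.40 in MNP, 36.9 ± 2.74 in control), Ifnar1 (34.0 ± 1.12 in MNP, 37.5 ± 1.41 in control) and Ifngr2 (33.2 ± 0.729 in MNP, 34.8 ± 1.41 in control). The range of Ifnar1 overlapped those of Ifnar2 and Ifngr2 in both groups, although Ifnar1 was above Ifngr2 in each of the 3 control libraries. Every Ifnar2 value lay above every Ifngr2 value in MNP, and these overlapped in control. Jak2 and Stat2 stood at nearly equal levels in control, 16.8 ± 0.484 and 16.5 ± 2.36 CPM per kilobase, and apart in MNP, 14.0 ± 0.173 for Jak2 and 10.2 ± 0.595 for Stat2. Tyk2 was lower, at 6.40 ± 0.238 in MNP and 7.63 ± 0.997 in control, and Socs1 was last at 0.157 ± 0.0687 in MNP and 0.0869 ± 0.0235 in control. These lengths count every annotated exon, so levels of genes with many alternative exons are understated.

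Ratios of 2 genes within a library, which do not depend on how libraries are scaled, were compared for 5 pairs with an exact two-sided permutation test, which cannot go below p = 0.1 with 3 libraries against 3. Ifngr1 over Ifngr2 was 1.32 ± 0.0709 in MNP and 1.47 ± 0.0492 in control (SD, n = 3 each), with no overlap between libraries (exact p = 0.1, adjusted p = 0.167). Jak2 over Jak1 was 0.237, 0.242 and 0.219 in MNP libraries, against 0.253, 0.259 and 0.271 in control libraries, again without overlap (exact p = 0.1, adjusted p = 0.167). By geometric means the MNP ratio was 0.895 times the control ratio for the first pair and 0.891 times for the second.
Stat2 over Tyk2 was 1.33, 1.28 and 1.53 in MNP libraries, against 1.89, 1.85 and 1.87 in control libraries, the largest shift of the 5 (0.736-fold, exact p = 0.1, adjusted p = 0.167). Control libraries agreed closely in this ratio although control library 1 was highest in both genes. Ifnar1 over Ifnar2 (1.72 ± 0.0157 in MNP, 1.82 ± 0.123 in control) and Tyk2 over Jak1 (0.146 ± 0.0116 in MNP, 0.161 ± 0.0198 in control) overlapped between groups (exact p = 0.4, adjusted p = 0.4 for each).

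**Figure D3:**
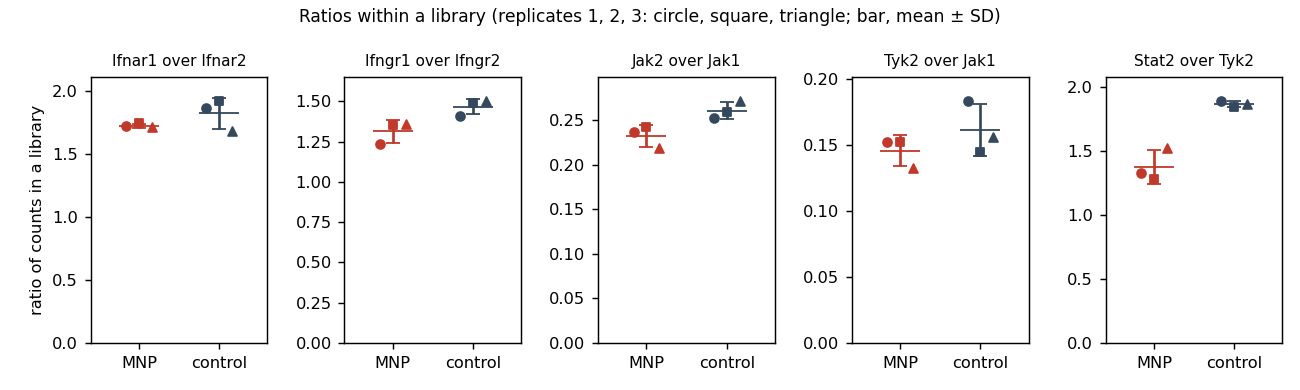
Ratio of the counts of 2 genes in each library, MNP left and control right, with the mean and SD of 3. Stat2 over Tyk2 separates the groups most, at 1.28 to 1.53 in MNP against 1.85 to 1.89 in control, while Ifnar1 over Ifnar2 and Tyk2 over Jak1 overlap.

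The interferons themselves were hardly counted. Of 21 interferon genes found by symbol, 10 had no count in any library, and the 21 together had 1, 3 and 3 counts in MNP libraries, against 14, 13 and 4 counts in control libraries. In all, 7 of 65840115 counts in MNP and 31 of 65519145 in control fell on interferons. Of the 7 in MNP, 6 belonged to Ifnz, which also had 6 in control, and 1 to Ifna6. Ifnb1, the first interferon made in many cells, had 0 counts in MNP libraries and 1 in control libraries, and Ifng had 0 in MNP and 3 in control, all in control library 1. The interferon alpha genes are near-identical, so their separate counts are uncertain. Ifnlr1, the specific chain of the type III interferon receptor, had 5 counts in MNP and 30 in control, a ratio of 0.176 (exact 95% interval 0.0534 to 0.459, counting error only). With no filter on low counts its edgeR adjusted p was 0.208. Over all 28815 genes of that fit the median log2 fold change was -0.16, against -0.011 for the tested genes. That median covers genes at every level, and Ifnlr1 was at -2.4 in the same fit. Whether low counts account for the lower values of the interferons and Ifnlr1 was not tested.

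Among the other kinases and STATs reported here and Irf9, 1 of 7 tested genes fell and 0 rose (8.35% and 9.11% of all tested genes). Their median log2 fold change was 0.039, against -0.011 for all tested genes. The gene that fell was Irf9, the DNA-binding partner of STAT2, at 34.6 ± 2.97 CPM in MNP and 52.7 ± 3.79 CPM in control (1.52-fold lower, log2 -0.61 ± 0.09, edgeR adjusted p = 0.000244). Stat6, which serves interleukin 4, was at 201 ± 6.08 CPM in MNP and 196 ± 16.9 CPM in control and did not pass (log2 0.039 ± 0.066, edgeR adjusted p = 0.740), and its sign turned with library totals alone (-0.050) and without control replicate 2 (-0.013). Stat3, which serves interleukins 6 and 10, was at 89.7 ± 4.87 CPM in MNP and 86.2 ± 5.11 CPM in control and did not pass (edgeR adjusted p = 0.617), with a log2 fold change of 0.057, or -0.032 with library totals alone. Jak3, the kinase of the common gamma chain, was at 5.42 ± 0.201 CPM in MNP and 4.10 ± 0.349 CPM in control and did not pass (edgeR adjusted p = 0.138).

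Of 17 tested inhibitors of the pathway, 2 fell and 1 rose (median log2 fold change -0.050). This was near the shares over all tested genes, of which 8.35% fell and 9.11% rose. With library totals alone 5 fell, and with replicate number as a block 3 fell, while 1 rose in each. Usp18, which displaces JAK1 from IFNAR2 and is itself an interferon target, fell to 5.69 ± 1.22 CPM in MNP, against 15.7 ± 2.04 CPM in control (2.76-fold lower). Socs6 fell to 78.9 ± 1.65 CPM in MNP, against 98.0 ± 7.82 CPM in control. Ptpn1, a phosphatase that acts on JAK2 and TYK2, rose to 195 ± 9.14 CPM in MNP, against 150 ± 9.24 CPM in control (1.30-fold, log2 0.38 ± 0.06, edgeR adjusted p = 0.000704). Of 9 genes of receptor turnover, scaffolds and STAT cofactors, 1 fell and 2 rose, beside the same 8.35% and 9.11% of all tested genes. Nmi, which binds STATs and is interferon-inducible, fell 1.41-fold. Prmt1, which binds the tail of the IFNAR1 chain, and the importin Kpna1, which carries STATs into the nucleus, rose 1.20-fold and 1.14-fold. Neither increase passed with library totals alone (edgeR adjusted p = 0.143 for Prmt1 and 0.271 for Kpna1). Prmt1 also did not pass without MNP replicate 1, 2 or 3 or control replicate 2 or 3 (adjusted p = 0.0604 to 0.144), nor Kpna1 without MNP replicate 1, 2 or 3 or control replicate 1 or 3 (adjusted p = 0.0600 to 0.177).

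Of 17 tested receptors of other cytokines that signal through JAKs, 5 fell and 2 rose (8.35% and 9.11% of all tested genes). The median log2 fold change was -0.15, against -0.011 for all tested genes. Il21r fell 2.36-fold, the interleukin 10 receptor chain Il10ra 1.41-fold and Il6ra 1.32-fold, while Il7r rose to 494 ± 7.55 CPM in MNP, against 400 ± 12.0 CPM in control (1.23-fold). Under the omission of single libraries the number that fell was 3 to 5 and the number that rose 1 to 2. With library totals alone 7 fell and 1 rose.

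Genes known as targets of the pathway moved much further than its receptors and kinases. All 25 tested targets of type I interferon fell (8.35% of all tested genes did), with a median log2 fold change of -1.79. This list was drawn up with earlier results of these libraries known and holds Stat2, Irf9 and Usp18, so it is not independent evidence of its direction or size. Its 24 genes other than Stat2 summed to 385, 408 and 439 CPM in MNP libraries, against 1313, 1052 and 998 CPM in control libraries. Control library 1 was the highest in this sum, as it was for Stat2 and Tyk2. Ifit2 fell 5.26-fold, Ifit3 5.78-fold, Rtp4 4.11-fold and Oasl2 3.51-fold. Of the 18 genes on the list with a RefSeq promoter window, 10 held an ISRE and 4 a GAS.

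Of 14 tested targets of interferon gamma, 11 fell and 0 rose (median -0.95), with Gbp2 6.16-fold, Gbp5 6.00-fold, Gbp3 4.76-fold and the transcription factor Irf1 2.05-fold lower. This list and the lists of STAT targets were also drawn up with earlier results of these libraries known. Counting Socs1, which was on this list but not tested, 14 of its genes had a promoter window, of which 6 held a GAS and 5 an ISRE. Of 5 tested targets of STAT6, 3 fell and 0 rose (median -0.93), Mrc1 1.91-fold, Clec10a 3.90-fold and Mgl2 3.02-fold. Of 9 targets of STAT3, Il1rn (2.16-fold) and Mcl1 (1.22-fold) fell and Sbno2 rose 1.22-fold. Of 6 targets of STAT5, Bcl6 rose 1.21-fold and none fell, where 8.35% of all tested genes fell and 9.11% rose. The increases of Bcl6 and Sbno2 did not pass with library totals alone (edgeR adjusted p = 0.0636 for Bcl6 and 0.0766 for Sbno2). Bcl6 also did not pass without MNP replicate 2 (0.0678) or control replicate 2 (0.0540), nor Sbno2 without MNP replicate 3 (0.0962) or control replicate 2 (0.0841) or 3 (0.0570).

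**Figure D4:**
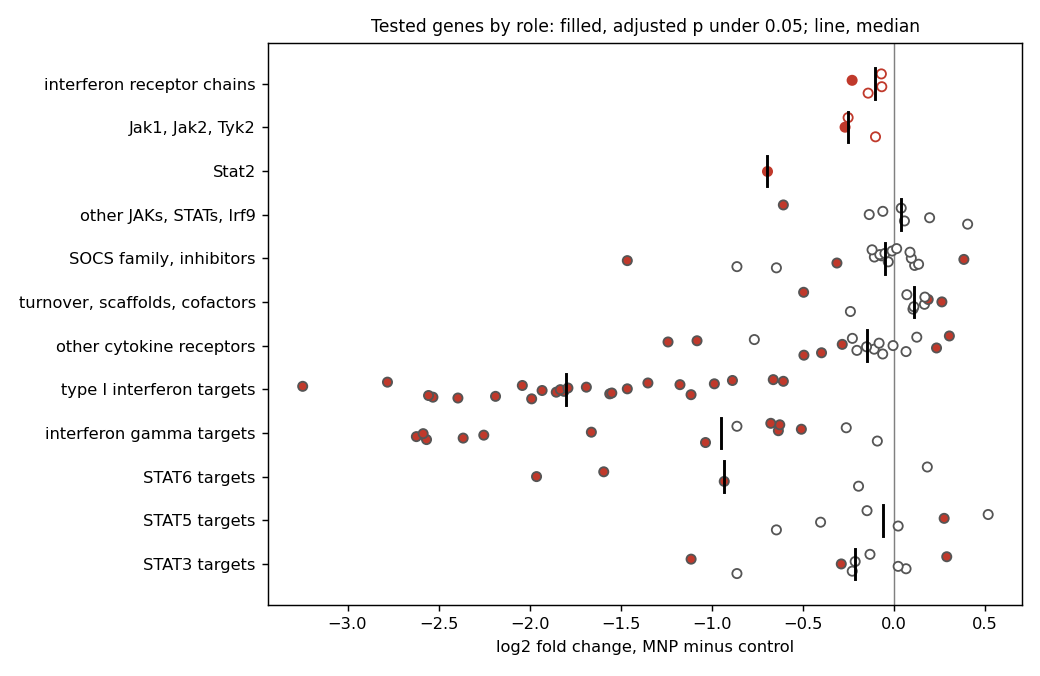
Log2 fold change of tested genes by their role in the pathway, MNP minus control; filled points passed an adjusted p of 0.05, lines are medians, and a gene of the first 3 rows is left out of the later rows. Receptor chains and kinases lie between -0.27 and -0.068, Stat2 at -0.70, and the targets of type I interferon at or below -0.61.

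Some markers of other cell types were lower in MNP. With no filter on low counts, the median log2 fold change over 28815 genes was -0.16, against -0.011 for the tested genes. Genes with too few counts to test thus leaned lower, which does not describe the markers that were tested. Of all tested genes, 8.35% fell and 9.11% rose. Neutrophil markers summed to 143 to 162 CPM in MNP and 200 to 276 CPM in control, with 5 of 8 tested lower and 0 higher. The median log2 fold change of these 8 was -0.70. Dendritic cell markers summed to 2.20 to 4.25 CPM in MNP and 4.75 to 7.78 CPM in control, with 1 of 5 lower, Siglech, a marker of plasmacytoid dendritic cells, which make interferon alpha (0.359 ± 0.109 CPM in MNP, 1.80 ± 1.04 CPM in control, edgeR adjusted p = 0.00836). T cell markers summed to 3.67 to 4.97 CPM in MNP and 15.2 to 19.3 CPM in control, nearly all of it Cd4, while Cd3e was at 0 counts in all 6 libraries. Natural killer cell markers summed to 0.956 to 1.62 CPM in MNP and 1.61 to 1.96 CPM in control, with 1 of 2 lower, and Ncr1 was at 0 counts in all 6. Megakaryocyte markers summed to 11.9 to 14.0 CPM in MNP and 17.3 to 25.3 CPM in control, with 1 of 3 lower. None passed among the tested markers of B cells (1 tested, sums 0.586 to 1.15 CPM in MNP and 1.31 to 2.26 in control), mast cells and basophils (1 tested, 1.24 to 1.59 in MNP and 1.44 to 2.97 in control) or stromal and endothelial cells (2 tested, 1.72 to 2.66 in MNP and 1.82 to 3.70 in control). No erythroid marker had enough counts to test, with sums of 0.225 to 0.483 CPM in MNP and 0.339 to 1.74 CPM in control. The part of these cells in the results was not tested.

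Genes whose log2 levels followed each fallen gene most closely over the 6 libraries, by Pearson's r and as a description only, were Lyn (0.997) and Pkib (0.997) for Jak2, Vps33a (0.997) and Daxx (0.996) for Stat2, and Hltf (0.995) and Sh3glb1 (0.994) for Ifngr1. All 6 genes fell. The libraries share the treatment split, and 318, 312 and 106 genes had an r above 0.95 with Jak2, Stat2 and Ifngr1 in that order.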

How the data were processed

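Counts per gene symbol, 1 deposited file per library, were used as the authors deposited them. The submitters' processing notes name GRCm39 as the build and list GATK, Salmon, STAR and fastp without version or role. The sources used here state no annotation, strand setting or use of molecular identifiers. Libraries were made from total RNA with the CORALL RNA-seq V2 kit, per the labels' protocols. Groups and replicate numbers came from sample titles, and within groups chi-square per degree of freedom was 7.07 to 19.6, so no 2 libraries looked like 1 deposited again.

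The test was that of edgeR 4.0.16 under R 4.3.3 (TMM factors, default expression filter, quasi-likelihood test, MNP minus control), which left 12893 genes, with Benjamini-Hochberg adjustment. The SE of a log2 fold change is its size divided by the root of the F statistic. The steps were tested on simulated counts. DESeq2 1.42.0 and limma-voom 3.58.1 were among 14 alternatives, beside other scalings, filters, a replicate block and the omission of each library. The genes and lists were chosen with earlier results of these data known, and 1 gene of the lists is not reported here. Named genes are the 9, up to 4 called genes of each list with the smallest p, Socs3 and Il10rb. Stat3, Stat6, Jak3, the interferon genes, Ifnlr1 and the cell markers named were chosen after their values were seen. Exon lengths and overlaps came from GENCODE M21 and promoters from RefSeq, both of the older build GRCm38, matched by symbol.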

Additional observations from a re-analysis of the deposited data

How the results depend on the processing

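Stat2 and Jak2 fell in all 14 alternatives and no tested gene of the 9 changed sign in any. With all libraries kept, 3 of the 9 genes fell in 6 of the alternatives. This number was 6 with library totals alone, and 2 to 3 when 1 library was left out. Over all tested genes, the number called was 1471 to 2245 with 1 library left out, against 2250, and 1471 was the count without MNP replicate 2. The replicate numbers gave no clear pairing of the libraries (correlations of same-numbered deviations 0.0874, 0.0288 and -0.0213), but so few values cannot exclude it. With a replicate block 4 of the 9 genes fell, Tyk2 added (edgeR adjusted p = 0.0442), and 2686 genes were called. The within-library ratios kept their direction with nothing added to the counts and when 1 library was left out. Their paired mean difference (-0.44 on the log2 scale for Stat2 over Tyk2) equals the unpaired one by arithmetic, so it is no further check. Stat6 turned to -0.050 and Stat3 to -0.032 with library totals alone, and Stat6 lay between -0.013 (without control replicate 2) and 0.11 when 1 library was left out. The cause was not tested. Of 280 recomputed list counts, 251 stayed within 1.5 times their value, and the type I interferon targets had 24 or 25 genes lower throughout. Depth limits Socs1, the interferons and Ifnlr1.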
